A study of Mus musculus with 42 samples.

Results

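Gene expression in E7.5 mouse offspring of fathers given the low dose of DEHP was compared with that in offspring of unexposed fathers, over 12987 of the 12988 genes in the expression table. The genes tested were all those with an Ensembl mouse gene identifier and at least 1 CPM in 2 or more of the 6 expression libraries. CPM are the reads of a gene scaled to the size of its library. Each group had 2 libraries, here called control 1 and control 2, and low 1 and low 2. DEHP, di(2-ethylhexyl) phthalate, is a plasticizer that softens polyvinyl chloride.

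The fathers of the low group were C57BL/6J males that started at 8 weeks of age and received 2.5 mg/kg/day of DEHP for 67 days, and those of the control group received vehicle over the same time. Both were mated with females that had no exposure. The offspring carried no engineered allele, and their strain is given as C57BL/6 * DBA/2J, the age as embryonic day 7.5 and the sex as male. The high group, whose fathers received 25 mg/kg/day, entered only the estimate of the spread. The labels list embryonic and extra-embryonic RNA libraries, and the columns analysed here name the treatment without the tissue. They do not say whether 2 libraries of a group came from separate litters or fathers, or how many embryos a library held, so p-values measure only the spread between these libraries, which may be technical.

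At this age the mouse embryo gastrulates. Epiblast cells pass through the primitive streak under Wnt, Nodal and FGF signals and leave it as mesoderm and endoderm, and retinoic acid and Hedgehog signals then begin to pattern them. Embryos of 1 litter differ in how far they have advanced, and genes that come on late in gastrulation mark the more advanced ones. Since these are whole-tissue libraries, fewer cells of a type and less RNA per cell cannot be told apart.

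Markers of the epiblast were abundant in all 4 libraries, with the pluripotency factor Pou5f1 at 415 and 498 CPM in the controls and 541 and 455 CPM in the low libraries, in order of library number, as in all pairs of values below. The streak factor T, or Brachyury, was at 276 and 226 CPM in the controls and 212 and 287 CPM in the low group. Trophoblast markers were few: 9 of 26, among them Elf5 and Gcm1, were not analysed here. The summed level of the other 17 was 930 and 740 CPM in the controls and 929 and 878 CPM in the low group. Eomes, also counted among the streak genes, held 128 and 176 CPM of these sums in the controls and 233 and 137 CPM in the low group. Of 22 markers of maternal decidua and blood, 15 were not analysed here, and the other 7 summed to 40.3 and 34.6 CPM in the controls and 39.0 and 41.1 CPM in the low libraries. Xist, the RNA that coats the inactive X chromosome of females, was at 712 and 525 CPM in the controls and 467 and 526 CPM in the low group. The Y-linked gene Ddx3y was at 8.69 and 17.8 CPM and at 15.0 and 11.6 CPM, so RNA of both sexes was found in each library although the label gives male. Read depth is not stated. Counted in the smallest step of which a library's low CPM values are multiples, the totals of control 2, low 1 and low 2 were 1.02, 1.02 and 1.04 times that of control 1.

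The 2 low libraries lay at different distances from the controls. On the log2(CPM + 1) scale the distance over all genes was 23.0 between the controls. It was 27.8 and 28.1 from low 1 to control 1 and control 2, and 19.9 and 20.2 from low 2 to the same controls. Low 2 was thus nearer to each control than the controls were to each other, and low 1 was farther. Of 10174 genes with a mean of at least 5 CPM, 169 differed by at least 1.5-fold between the controls. The count was 254 and 222 between low 1 and each control, 66 and 145 between low 2 and each control, and 196 between the low libraries.

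**Figure D1:**
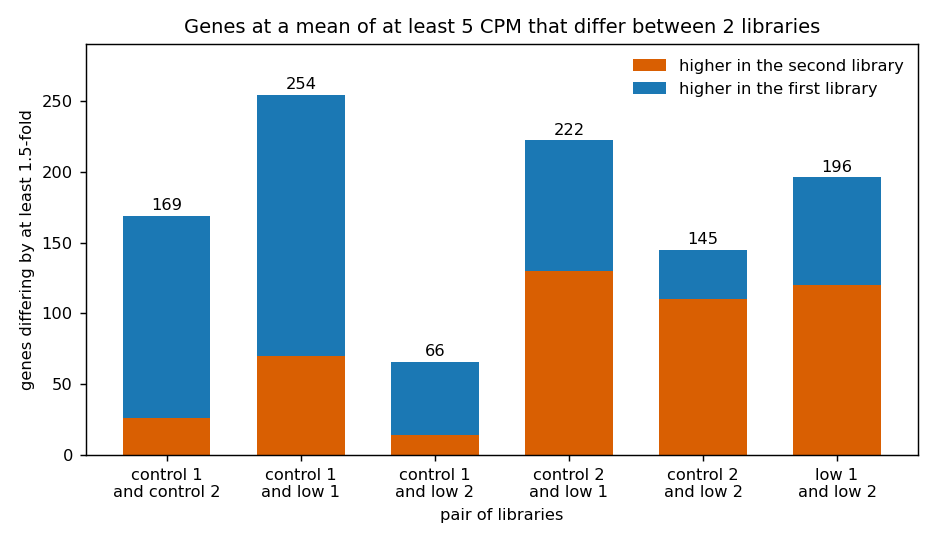
Genes with a mean of at least 5 CPM that differed by at least 1.5-fold between 2 libraries, for each pair of control and low libraries (x axis); the y axis counts genes, and the colours give the direction. Control 1 and low 2 differed in the fewest genes, 66, and control 1 and low 1 in the most, 254.

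Taken against both controls at once, low 1 lay above them in 35.1% of genes and below them in 33.7%, and low 2 lay above in 33.2% and below in 32.3%. Both low libraries lay above both controls in 2335 genes (18%) and below both in 2235 genes (17.2%), which is 35.2% of all genes tested without overlap between the groups. Among equally likely orderings of 2 libraries against 2, a share of 0.333 has no overlap, counting both directions. The low libraries lay on opposite sides of the controls in 2008 genes: low 1 above and low 2 below in 1058 genes (8.15%), and the reverse in 950 genes (7.32%). The gap between the nearest low and control libraries was at least 1.1-fold in 241 higher and 435 lower genes, at least 1.5-fold in 3 higher and 9 lower genes, and at least 2-fold in 1 higher and 2 lower genes. The group difference was larger than both differences within groups in 2913 genes, or 22.4%. The share to be expected without a group effect was not worked out for this count, so it does not measure such an effect. Where each low library was set against a different control, the differences had the same sign in 49.2% of genes for one pairing and 54.2% for the other. Across the 12987 genes, which are not independent replicates, Pearson's r was -0.04 in both. Spearman's rho was -0.04 for the first pairing and 0.12 for the other.

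Limma called 0 genes (0% of those tested) between low and control at an adjusted p under 0.05, and the smallest adjusted p was 0.254. At an unadjusted p under 0.05 by limma there were 633 genes (4.87%), 247 of them higher in the low group (1.9%) and 386 lower (2.97%). The genes named below are therefore described by their values. Counts at an unadjusted p below are to be read against 1.9% of all genes for higher and 2.97% for lower ones. Without low 1 the count of called genes was 0, and without low 2, where low 1 stood alone and was assumed to vary like the other groups, it was 65.

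The 12 higher genes with the smallest p were Mesp1, Gm23935, Scand1, Nr2f6, Sp5, Gas1, Lefty2, Zfp771, Jund, Cox5a, Zfp622 and Mocs3. Gm23935, a predicted gene of 57 bases on chromosome 16 (chr16:11144125-11144181, coordinates of the table, GRCm38), was at 56.6 and 36.6 CPM in the controls and 128 and 125 CPM in the low libraries. The low libraries lay close together and at least 2.20-fold above either control (log2 difference 1.45, SE 0.17, adjusted p = 0.254 by limma). Scand1, which encodes a SCAN domain protein, was at 9.28 and 7.74 CPM in the controls and 13.1 and 16.2 CPM in the low group. Nr2f6, an orphan nuclear receptor of the COUP family, was at 34.8 and 33.2 CPM in the controls and 42.9 and 45.3 CPM in the low libraries. In both genes low 2, the library nearer to the controls over all genes, was the higher of the low libraries. Zfp771, a zinc finger gene, was at 13.7 and 11.7 CPM in the controls and 17.3 and 18.2 CPM in the low group. Mocs3, an enzyme of molybdenum cofactor synthesis and tRNA thiolation, was at 5.08 and 4.58 CPM in controls and 6.86 and 7.86 CPM in low libraries. Zfp622 was at 38.6 and 38.8 CPM (controls) and 46.6 and 46.8 CPM (low). Its controls were nearly equal and so were its low libraries, and a difference of 1.20-fold separated the groups.

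The 12 lower genes with the smallest p were Gli2, Ror1, Gm10282, Bcan, Scara3, Gria3, Dzip3, Prkar2b, Frem1, Rps16-ps2, Srgap3 and Gucy2e. Frem1, a protein of the basement membrane under epithelia, was at 19.99 and 18.2 CPM in the controls and 8.30 and 13.3 CPM in the low group (log2 difference -0.80, SE 0.18). Scara3, a scavenger receptor, was at 2.36 and 1.85 CPM in the controls and 0.802 and 1.06 CPM in the low libraries. Gria3, a glutamate receptor subunit, was at 6.31 and 6.06 CPM in controls and 4.24 and 4.50 CPM in low libraries. Both had low libraries that lay nearer to each other than to either control. Dzip3, a ubiquitin ligase, was at 37.6 and 32.0 CPM in the controls and 24.8 and 24.9 CPM in the low group. Prkar2b, a regulatory subunit of protein kinase A, was at 17.9 and 16.8 CPM (controls) and 11.0 and 13.6 CPM (low). Srgap3, a GTPase-activating protein of the Slit and Robo pathway, was at 9.64 and 9.44 CPM in the controls and 6.98 and 7.37 CPM in the low libraries. Robo2, the Slit receptor that guides axons and was among the 9 lower genes with the 1.5-fold gap, was at 3.70 and 1.75 CPM in the controls and 0.463 and 1.02 CPM in the low group. Gucy2e, a guanylate cyclase of photoreceptors, was near the lower limit of the table at 1.39 and 1.24 CPM in controls and 0.624 and 0.680 CPM in low libraries.

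**Figure D2:**
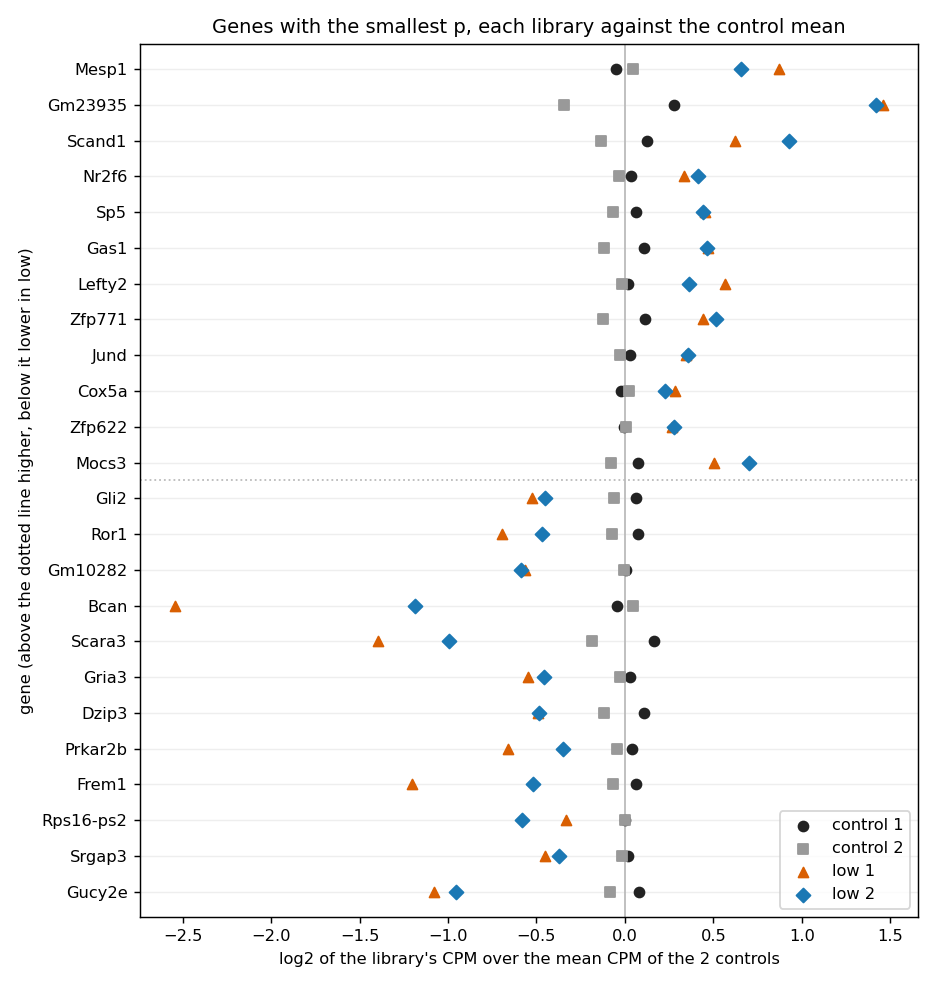
The 12 higher and 12 lower genes with the smallest limma p among genes without overlap, in order of p within each direction (y axis), each library's CPM divided by the mean of the controls on a log2 axis (x axis). Low 1 and low 2 lie close together for Sp5, Gas1, Jund, Zfp622 and Dzip3 and apart for Bcan and Frem1.

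Among genes of the primitive streak and nascent mesoderm, the mesoderm factors Mesp1 and Mesp2 lay above both controls and the caudal factors Nkx1-2 and Msgn1 below both. Of the 30 genes of this list, all of them measured, 14 were higher and 16 lower. At an unadjusted p under 0.05 there were 7 higher and 6 lower, beside 1.9% and 2.97% of all genes. The median log2 difference was -0.03 (0.0025 over all genes tested), or -0.09 to 0.12 with 1 library left out. Mesp1, a factor that starts cardiac mesoderm as it leaves the streak (chr7:79792241-79793788), was at 31.1 and 33.2 CPM in the controls and 58.8 and 50.7 CPM in the low group. Its neighbour and paralog Mesp2, a segmentation factor, was at 4.47 and 6.05 CPM (controls) and 9.37 and 7.35 CPM (low) (log2 difference 0.58, SE 0.15). In both genes the groups did not overlap and low 1 was the highest library. Lefty2, which blocks Nodal, was at 89.2 and 87.2 CPM in the controls and 131 and 113 CPM in the low libraries (log2 difference 0.46, SE 0.09). Fgf3, an FGF ligand of the streak, was at 25.7 and 20.8 CPM in controls and 34.03 and 30.2 CPM in low libraries (0.45, SE 0.11). Wnt3, the ligand that is needed to form the streak, was at 13.2 and 15.3 CPM (controls) and 21.3 and 16.0 CPM (low). Evx1, a homeobox factor of the posterior streak, was at 28.2 and 21.8 CPM in the controls and 29.3 and 31.7 CPM in the low libraries. For Wnt3 the distance to the controls was mainly that of low 1, and its log2 difference was 0.16 without it. Fst, an activin antagonist, was on the other side, at 106 and 95.002 CPM in the controls and 82.4 and 83.3 CPM in the low group, and Apln, the apelin ligand, was at 68.0 and 62.5 CPM in controls and 57.7 and 55.8 CPM in low libraries.

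The caudal genes were lower mainly in low 1. Nkx1-2, a marker of the caudal epiblast, was at 77.1 and 50.1 CPM in the controls and 14.7 and 44.4 CPM in the low group. Msgn1, a factor of presomitic mesoderm, was at 11.2 and 8.07 CPM (controls) and 0.721 and 6.59 CPM (low), and Cdx2, a caudal homeobox factor, at 44.1 and 29.6 CPM in the controls and 13.3 and 34.2 CPM in the low libraries. Low 2 was 1.13-fold under control 2 for Nkx1-2 and 1.22-fold under it for Msgn1, and lay between the controls for Cdx2, while low 1 was the lowest library for all 3. Without low 1 the log2 differences were -0.48, -0.47 and -0.08, against -1.24, -1.54 and -0.73 with it. Of the Hox genes, all 7 measured lay below both controls in low 1, and 4 did so in low 2, beside 33.7% and 32.3% of all genes. Among them Hoxb1 was at 36.1 and 27.5 CPM in controls and 9.09 and 27.1 CPM in low libraries.

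Upstream sequences of Mesp1 and Sp5 are shown because these streak genes were among the 5 with the smallest p in the higher direction and both hold the TCF/LEF motif, the letters through which the end point of canonical Wnt signalling binds DNA. The sequences are the 250 bases before the RefSeq start site on build GRCm38.p6, read 5' to 3' on the gene's strand, and capitals mark CTTTGAT. Mesp1 lies on the minus strand (chr7:79793591-79793840) and Sp5 on the plus strand (chr2:70474673-70474922).
Mesp1: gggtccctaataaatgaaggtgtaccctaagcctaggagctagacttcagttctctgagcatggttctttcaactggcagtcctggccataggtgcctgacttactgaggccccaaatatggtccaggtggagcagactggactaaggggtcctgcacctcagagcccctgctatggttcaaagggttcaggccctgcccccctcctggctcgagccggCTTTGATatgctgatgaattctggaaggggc
Sp5: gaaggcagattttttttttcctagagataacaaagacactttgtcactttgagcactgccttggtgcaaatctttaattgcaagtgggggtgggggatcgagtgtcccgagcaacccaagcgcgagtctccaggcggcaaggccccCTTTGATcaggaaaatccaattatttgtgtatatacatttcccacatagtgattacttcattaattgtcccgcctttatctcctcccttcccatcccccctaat
In the windows searched, 250 bases before to 50 after the start, CTTTGAT on either strand was found in 3 of 23 streak genes with a window (Mesp1, Sp5 and Msgn1), in 2.93% of the 9938 tested genes with a window and in 4.29% of all 27025 windows. The first base of the motif lay 31 bases before the start in Mesp1 and 104 before it in Sp5. Sp5, a direct Wnt target, was at 51.2 and 46.9 CPM in the controls and 67.1 and 66.6 CPM in the low group. Msgn1, which holds the same letters, was lower as given above, and Axin2 and Lgr5, Wnt targets without them in this window, were lower too: Axin2 was at 82.1 and 72.7 CPM (controls) and 56.0 and 74.0 CPM (low) and Lgr5 at 9.74 and 11.4 CPM in the controls and 9.37 and 9.03 CPM in the low libraries. Of 23 measured Wnt targets and inhibitors, 7 were higher and 16 lower, 1 higher and 4 lower at an unadjusted p under 0.05. The secreted Wnt antagonist Sfrp1 had the smallest p of the lower ones, at 96.6 and 103 CPM in the controls and 81.2 and 82.8 CPM in the low group (log2 difference -0.28, SE 0.07).

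Most Hedgehog pathway genes were lower in both low libraries, among them the ligand Shh, the Gli factors and the target Ptch1. Hedgehog ligands bind the receptor Ptch1 and so release Smo, which acts through the primary cilium on the Gli transcription factors, and Ptch1 and Gli1 are themselves targets of the pathway. Of 18 measured members 14 were lower, and 12 lay below both controls in both low libraries, where 17.2% of all genes did. At an unadjusted p under 0.05 by limma 6 were lower and 1 higher, beside 2.97% and 1.9% of all genes. The ligand Shh was low throughout, at 2.90 and 2.63 CPM in the controls and 0.414 and 1.57 CPM in the low group (log2 difference -0.98, SE 0.25). The factor Gli2 was at 42.7 and 39.2 CPM in controls and 28.4 and 29.9 CPM in low libraries (-0.47, SE 0.07), and Gli3, which is mainly a repressor, at 60.8 and 58.0 CPM (controls) and 46.4 and 51.9 CPM (low) (-0.27, SE 0.07). The target and receptor Ptch1 was at 56.6 and 49.2 CPM in the controls and 43.2 and 43.0 CPM in the low libraries (-0.28, SE 0.08), and the target Gli1 at 10.5 and 8.14 CPM in controls and 5.04 and 8.03 CPM in low libraries. The low libraries were alike for Gli2 and Ptch1, while for Gli1 low 2 was just under control 2. Of the coreceptors, Boc was at 7.11 and 6.33 CPM in the controls and 4.09 and 5.88 CPM in the low group, and Gas1 was on the other side at 36.9 and 31.5 CPM (controls) and 47.4 and 47.2 CPM (low) (log2 difference 0.46, SE 0.08). Smo, the transducer, was at 190.1 and 189 CPM in the controls and 174 and 189 CPM in the low libraries, and Sufu, the inhibitor of Gli factors, at 78.1 and 76.9 CPM in controls and 76.9 and 79.2 CPM in low libraries, so that the groups overlapped for both. The list median was -0.16, -0.12 without low 1 and -0.10 without control 1. For the pairs of 1 low and 1 control library it ran from -0.20 (low 1 and control 1) to -0.07 (low 2 and control 2), beside -0.09 for control 2 less control 1. The GLI motif TGGGTGGTC was in 0 of 14 windows of the list and in 0.262% of the tested genes.

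Cilium genes lay in the same direction with smaller differences. The Hedgehog list itself holds the cilium transport genes Ift88, Ift172 and Dync2h1. Dync2h1 was counted in both lists, so the lists are not separate. Of 30 genes for assembly of and transport in the primary cilium, 22 were lower and 14 lay below both controls (17.2% of all genes did), while 0 had an unadjusted p under 0.05 by limma, and the median was -0.07 (-0.03 without low 1). Ift80, a subunit of the transport particle, was at 41.3 and 42.4 CPM in the controls and 37.3 and 38.9 CPM in the low group. Rpgrip1l, a protein of the cilium's base, was at 15.3 and 14.9 CPM (controls) and 12.8 and 13.9 CPM (low).

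Genes of planar cell polarity, the signalling by which cells align in a sheet, were divided. Of 24 genes 16 were lower, 2 of them at an unadjusted p under 0.05, and 8 were higher, 1 of them at that level. Ror1, a receptor of Wnt5a, was at 35.4 and 32.0 CPM in the controls and 20.8 and 24.4 CPM in the low group (log2 difference -0.56, SE 0.09), and the cadherin Celsr1 at 37.7 and 39.3 CPM in the controls and 32.4 and 34.6 CPM in the low libraries. The cytoplasmic component Prickle1 was higher in both low libraries, at 45.03 and 40.8 CPM in controls and 56.9 and 51.4 CPM in low libraries (0.33, SE 0.08).

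Some genes were far apart within a group. The genes with the largest ratios within groups were Cdh5, Prl3d1, Prl7a1 and Adm. The placental lactogen Prl3d1, a product of trophoblast giant cells, was at 9.72 and 0.754 CPM in the controls and 28.4 and 0.407 CPM in the low group. Its relative Prl7a1 was at 4.99 and 0.414 CPM (controls) and 16.1 and 0.381 CPM (low). Cdh5, the cadherin of endothelium, was at 4.78 and 0.287 CPM in the controls and 42.3 and 0.4997 CPM in the low libraries, and Adm, the peptide adrenomedullin, at 13.7 and 1.55 CPM in controls and 78.7 and 0.871 CPM in low libraries. In all 4 genes low 1 was highest, control 1 was next and the other libraries were far lower, so the log2 differences of 1.56 for Cdh5, 0.57 for Prl3d1, 0.74 for Prl7a1 and 0.997 for Adm were negative without low 1 (-0.86, -1.62, -1.08 and -1.71).

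The trophoblast list moved with this library. Of 17 measured trophoblast genes 15 were higher, with a median of 0.34, and without low 1 the median was -0.04. Above both controls lay 14 of them in low 1 and 2 in low 2 (35.1% and 33.2% of all genes did). The list shares Eomes and Cdx2 with the streak list, Hand1 with the heart list and Fgfr2 with the FGF list. It is thus not separate from the lists of embryonic genes. Plac1, a placental gene, was at 4.68 and 1.72 CPM in the controls and 24.4 and 2.85 CPM in the low group. Ascl2, a factor of the ectoplacental cone, was at 1.30 and 1.49 CPM (controls) and 5.05 and 1.68 CPM (low), and Tfap2c at 7.67 and 4.90 CPM in the controls and 19.4 and 5.97 CPM in the low libraries. Of 19 epiblast genes 14 lay above both controls in low 1, where 35.1% of all genes did, and 8 lay below both in low 2, where 32.3% did. Fgf5, a marker of the primed epiblast, was at 34.7 and 51.3 CPM in the controls and 65.9 and 33.9 CPM in the low group. The part that these markers play in the other differences of low 1 was not tested.

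**Figure D3:**
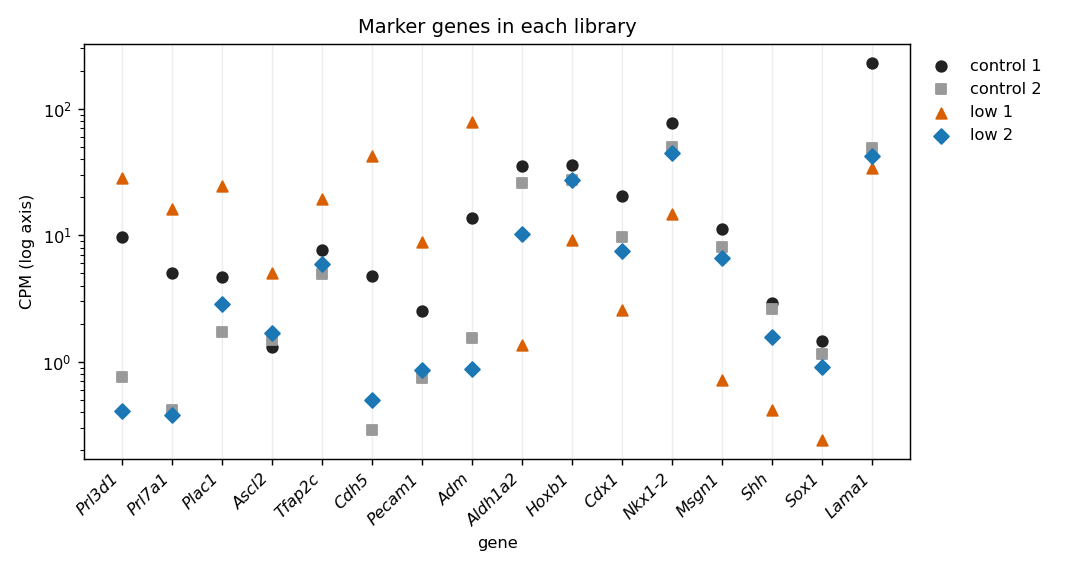
CPM (log axis) of 16 marker genes in each control and low library, from trophoblast and endothelium on the left to caudal, node and neural genes on the right, with the basement membrane gene Lama1 last. Low 1 is highest for Prl3d1 (28.4 CPM), Cdh5 (42.3 CPM) and Adm (78.7 CPM) and lowest for Aldh1a2 (1.36 CPM) and Msgn1 (0.721 CPM).

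Most neural plate genes had a lower mean in the low group. Of 17 measured genes 13 were lower, and 8 lay below both controls, where 17.2% of all genes did. At an unadjusted p under 0.05 there were 7 lower and 0 higher, beside 2.97% and 1.9% of all genes. The median was -0.25 (-0.11 without low 1 and -0.13 without control 1). For single pairs it ran from -0.37 (low 1 and control 1) to -0.01 (low 2 and control 2), beside -0.21 for control 2 less control 1. Nes, the neural filament nestin, was at 61.1 and 61.6 CPM in the controls and 51.5 and 53.3 CPM in the low group (log2 difference -0.22, SE 0.05). Hesx1, a factor of the anterior neural plate, was at 3.54 and 3.54 CPM (controls) and 2.69 and 2.75 CPM (low). Gbx2, a factor of the hindbrain, was at 26.1 and 15.9 CPM in the controls and 6.43 and 15.1 CPM in the low libraries, and Sox1 at 1.47 and 1.16 CPM in controls and 0.242 and 0.907 CPM in low libraries. For Nes and Hesx1 the low libraries were alike, and for Gbx2 and Sox1 low 2 was near control 2. Zic2 was an exception, at 101 and 111 CPM in the controls and 139 and 112 CPM in the low group.

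In the retinoic acid pathway, which turns vitamin A into a signal that posterior genes need, 13 of 19 measured genes were lower. The list median was -0.08. For single pairs it ran from -0.13 (low 1 and control 1) to -0.02 (low 1 and control 2), beside -0.12 for control 2 less control 1. Below both controls lay 7 genes (17.2% of all genes did) and above both lay 3, and at an unadjusted p under 0.05 there were 3 lower and 2 higher genes. The smallest p of the list was that of a higher gene, Nr2f6, whose values are given above. Aldh1a2, which makes the ligand (chr9:71215789-71296243), had the widest gap of any lower gene with at least 1 CPM in every library and 5 CPM in both controls, since low 2 at 10.3 CPM was 2.51-fold under control 2 at 25.8 CPM, and low 1 was at 1.36 CPM. Crabp2, the carrier that takes retinoic acid to its receptor, was at 25.3 and 19.3 CPM in the controls and 7.07 and 15.4 CPM in the low group. Rarb, a receptor that retinoic acid itself induces, was at 2.29 and 1.56 CPM (controls) and 0.813 and 1.46 CPM (low). Another enzyme of ligand synthesis, Aldh1a3, was on the other side at 1.88 and 1.83 CPM in the controls and 2.55 and 2.80 CPM in the low libraries (log2 difference 0.36, SE 0.11).

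Notch genes and FGF genes had members on both sides. Of 22 Notch and segmentation genes 4 were lower and 2 higher at an unadjusted p under 0.05. The receptor Notch1 was at 73.1 and 66.0 CPM in the controls and 50.6 and 60.5 CPM in the low group, and Notch2 at 89.1 and 83.0 CPM in controls and 72.4 and 77.0 CPM in low libraries. Hes3, a Notch-related repressor of neural tissue, was at 2.44 and 1.26 CPM (controls) and 0.0377 and 0.664 CPM (low). Lfng, which modifies Notch receptors, was higher at 19.4 and 17.6 CPM in the controls and 23.2 and 22.8 CPM in the low libraries (log2 difference 0.30, SE 0.08). Of 24 FGF genes, the ligands Fgf3 and Fgf4 were higher and the receptor Fgfr2 lower. Fgf4 was at 10.2 and 7.63 CPM in the controls and 15.6 and 11.8 CPM in the low group, and Fgfr2 at 42.3 and 33.4 CPM in controls and 19.5 and 30.3 CPM in low libraries. Spred1, which restrains the Ras pathway below the receptor, was at 88.2 and 89.7 CPM (controls) and 73.1 and 80.0 CPM (low).

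Extracellular matrix genes were lower in 30 of 33 cases, and 12 of them lay below both controls, beside 17.2% of all genes. Bcan, the proteoglycan brevican, was at 2.46 and 2.61 CPM in the controls and 0.436 and 1.11 CPM in the low group (log2 difference -1.02, SE 0.20). Fbn1, the microfibril protein fibrillin, was at 8.02 and 8.17 CPM in the controls and 5.28 and 6.69 CPM in the low libraries, and the cartilage collagen Col2a1 at 22.8 and 22.0 CPM in controls and 17.3 and 20.8 CPM in low libraries. In these genes both controls were alike and both low libraries lay under them. The basement membrane genes had another pattern, with control 1 alone high. Col4a1, the main collagen of basement membranes, was at 768 and 282 CPM in the controls and 275 and 305 CPM in the low group, Lamc1 at 300.1 and 146 CPM (controls) and 142 and 126 CPM (low), and Sox7, a factor of parietal endoderm, at 9.87 and 1.83 CPM in the controls and 2.04 and 2.32 CPM in the low libraries. The list median was -0.21, -0.09 without control 1 and -0.11 without low 1. For single pairs it ran from -0.42 (low 1 and control 1) to -0.0064 (low 2 and control 2), beside -0.098 for control 2 less control 1.

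Visceral endoderm genes were lower in control 2 than in the other libraries. Of 31 measured genes of visceral and parietal endoderm, 21 were higher, and the median difference of 0.24 was -0.15 without control 2. Apoa1, a lipoprotein component, was at 212 and 124 CPM in the controls and 238 and 243 CPM in the low group. Amn, a part of the uptake receptor of this epithelium, was at 60.0 and 36.3 CPM in controls and 63.2 and 70.0 CPM in low libraries, and Afp at 141 and 95.6 CPM (controls) and 160.1 and 153 CPM (low). The low libraries lay above both controls in these 3 genes, though nearer to control 1. They did so in 5 of the 31 genes of the list, beside 18% of all genes, and lay below both controls in 2.

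Genes of the respiratory chain and of translation were higher in both low libraries by small amounts. Of 37 measured subunits and assembly factors of respiratory complex I 34 were higher, and 25 lay above both controls, where 18% of all genes did. For complexes II to V the counts were 35 and 30 of 37, for the mitochondrial ribosome 51 and 30 of 52, for cytosolic ribosomal proteins 75 and 51 of 78 and for the proteasome 30 and 19 of 31. None of these lists had a member below both controls, and their medians lay between 0.06 and 0.08 on the log2 scale. At an unadjusted p under 0.05 there were 13 higher genes and 0 lower in these 5 lists, beside 1.9% and 2.97% of all genes. Ndufab1, the acyl carrier subunit of complex I, was at 69.3 and 68.7 CPM in the controls and 78.3 and 82.1 CPM in the low group (log2 difference 0.21, SE 0.06). Cox5a, of cytochrome oxidase, was at 100.01 and 103 CPM in the controls and 123 and 119 CPM in the low libraries (0.25, SE 0.05), and Uqcrfs1, the Rieske protein of complex III, at 71.2 and 71.9 CPM in controls and 79.6 and 79.7 CPM in low libraries (0.15, SE 0.05). For each of these the libraries of a group were alike and the groups apart, a pattern that their choice by smallest p favours. Mrps24, of the small mitochondrial ribosome subunit, was at 16.2 and 14.7 CPM (controls) and 19.7 and 20.4 CPM (low) (0.36, SE 0.08), and Rpl24, of the large cytosolic subunit, at 65.7 and 66.8 CPM in the controls and 73.6 and 75.0 CPM in the low libraries (0.16, SE 0.06). Unlike the lists of trophoblast and caudal genes, these did not rest on low 1. Without it the medians were 0.09 for both groups of respiratory genes, 0.07 for both kinds of ribosome and 0.06 for the proteasome, while without control 1 it was 0.04 for cytosolic ribosomal proteins and for the proteasome. The difference between the controls was in places as large: control 2 less control 1 was 0.06 for cytosolic ribosomal proteins and for the proteasome, beside 0.0044 for complex I and 0.00071 for the mitochondrial ribosome. The 15 genes encoded in mitochondrial DNA were not analysed here.

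**Figure D4:**
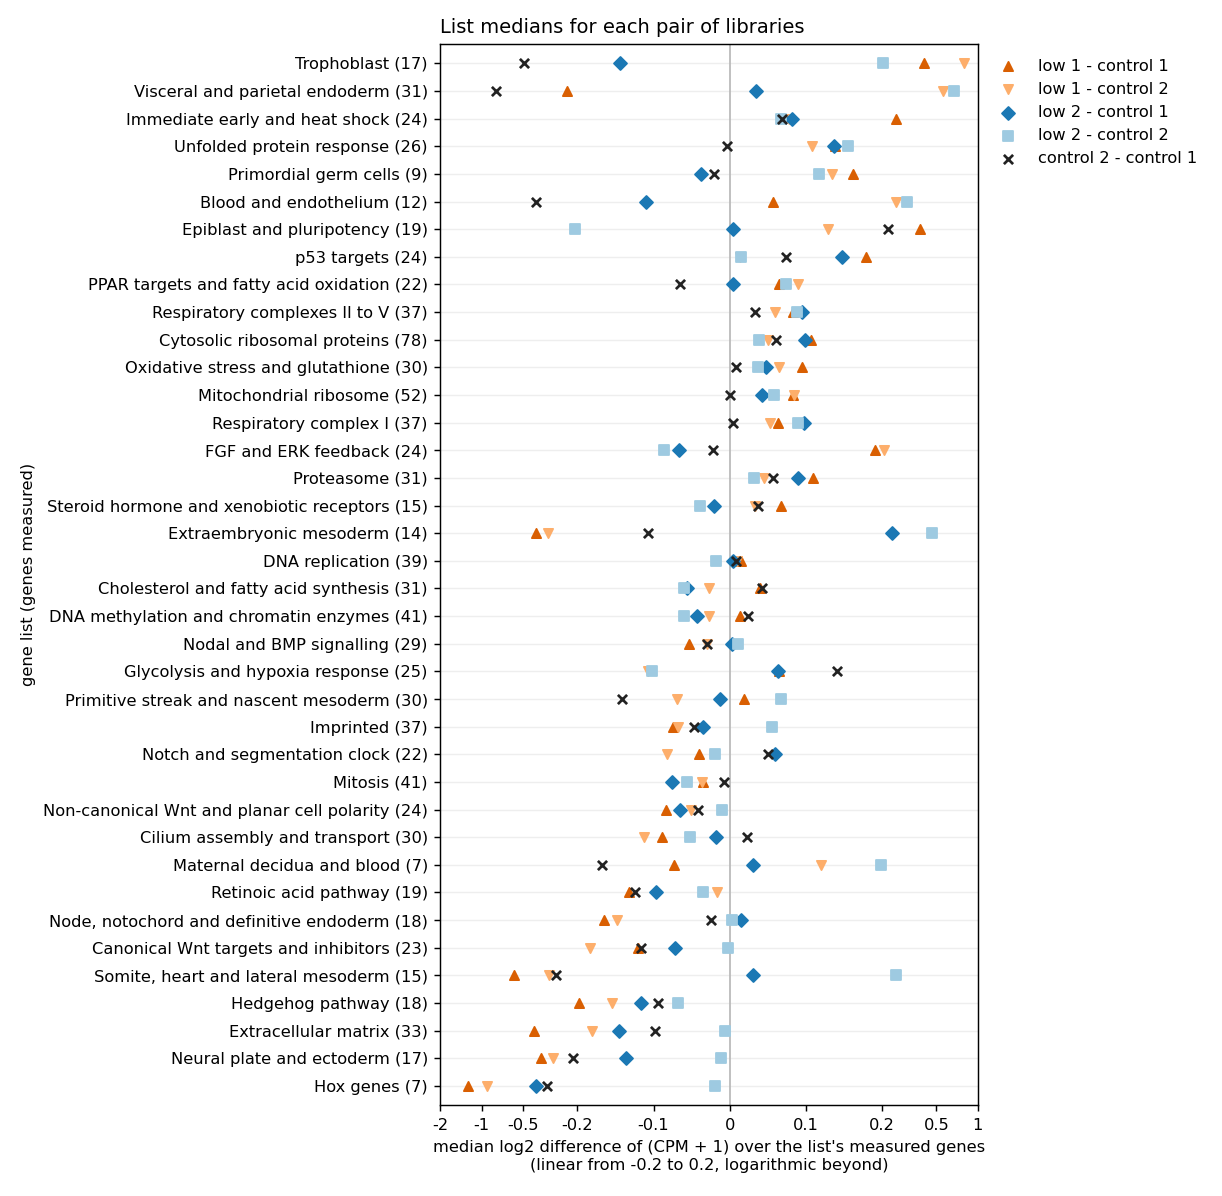
Median log2 difference of each gene list (y axis, number of measured genes in brackets) for the 4 pairs of 1 low and 1 control library and for control 2 less control 1 (x axis, linear from -0.2 to 0.2 and logarithmic beyond). For the unfolded protein response the 4 pairs lie between 0.11 and 0.16 and the median of control 2 less control 1 is -0.0034, whereas for trophoblast and visceral endoderm the pairs lie on both sides of 0.

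Chaperones and other genes of the unfolded protein response, which the endoplasmic reticulum raises when proteins misfold, were higher in both low libraries. Of 26 measured genes 24 were higher, and 17 lay above both controls and 0 below, beside 18% and 17.2% of all genes. At an unadjusted p under 0.05 by limma 7 were higher, beside 1.9% of all genes. The list median was 0.14. The median was 0.13 without either low library, and that of control 2 less control 1 was -0.0034. The main chaperone Hspa5 was at 728 and 760 CPM in the controls and 833 and 875 CPM in the low group (log2 difference 0.20, SE 0.08). Xbp1, the factor that drives the response, was at 46.4 and 46.9 CPM in controls and 52.5 and 60.1 CPM in low libraries (0.26, SE 0.09), and Sdf2l1, a cofactor of Hspa5, at 21.4 and 21.7 CPM (controls) and 24.4 and 26.7 CPM (low) (0.24, SE 0.08). In these 3 genes low 2 was the highest library. In 2 genes known from the Perk branch of the response the groups overlapped: Atf4 was at 148.1 and 148.3 CPM in the controls and 160.5 and 142 CPM in the low libraries and Ddit3, also called Chop, at 1.36 and 1.87 CPM in controls and 1.44 and 1.64 CPM in low libraries.

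The upstream sequences of Hspa5 and Creld2 are shown because their genes were higher together and hold the endoplasmic reticulum stress element, a motif that factors of this response bind. The element was searched on both strands as CCAAT, 9 bases of any kind and CCACG, so that it contains the CCAAT box, and capitals mark it. The sequences are 250 bases before the RefSeq start on build GRCm38.p6, read 5' to 3' on the plus strand, which is that of both genes (Hspa5 at chr2:34771840-34772089 and Creld2 at chr15:88819396-88819645). In Creld2 the element is on the opposite strand and so appears as its reverse complement.
Hspa5: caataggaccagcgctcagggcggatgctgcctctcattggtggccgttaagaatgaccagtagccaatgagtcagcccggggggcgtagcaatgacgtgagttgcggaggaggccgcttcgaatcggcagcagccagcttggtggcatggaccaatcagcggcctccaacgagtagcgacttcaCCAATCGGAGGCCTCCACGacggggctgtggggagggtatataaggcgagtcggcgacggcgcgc
Creld2: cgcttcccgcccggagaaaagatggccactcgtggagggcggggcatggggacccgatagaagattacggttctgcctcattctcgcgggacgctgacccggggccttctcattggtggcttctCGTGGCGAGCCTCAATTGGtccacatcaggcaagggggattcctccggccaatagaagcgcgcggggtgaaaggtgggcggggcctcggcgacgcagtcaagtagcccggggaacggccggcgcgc
The exact letters were found in 7 of the 23 response genes with a window (Hspa5, Hsp90b1, Calr, Canx, Pdia6, Dnajc3 and Creld2), in 0.191% of the 9938 tested genes with a window and in 0.137% of all windows. All 7 lay above both controls in both low libraries, where 17 of the 26 measured genes of the list and 18% of all genes did. Their log2 differences ran from 0.03 for Canx to 0.22 for Dnajc3. The letters were in 19 tested genes in all, and the direction of those outside the list is not given here. Whether the letters go with the increase was not tested. Creld2, a secreted protein of the stressed reticulum, was at 42.5 and 38.9 CPM in the controls and 47.6 and 44.4 CPM in the low group. Canx, the lectin chaperone calnexin, was at 491 and 488 CPM (controls) and 503 and 497 CPM (low) (log2 difference 0.03, SE 0.07). Genes without these letters in the window, such as Sdf2l1, Xbp1 and Manf, were higher as well, and no match says only that the letters are not in the window.

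Most of the measured p53 targets and stress genes were higher. Of 24 measured p53 targets 20 were higher, and the median was 0.09, which was 0.03 without control 1. At an unadjusted p under 0.05 there were 5 higher and 0 lower, beside 1.9% and 2.97% of all genes. Ccng1, a cyclin that p53 induces, was at 28.0 and 33.3 CPM in the controls and 40.2 and 38.3 CPM in the low group (log2 difference 0.35, SE 0.09). Phlda3, an inhibitor of Akt, was at 5.67 and 5.08 CPM in the controls and 7.36 and 7.38 CPM in the low libraries (0.40, SE 0.11), and the nuclease Aen at 79.3 and 81.7 CPM in controls and 96.2 and 89.9 CPM in low libraries. Not all targets lay this way: Cdkn1a, the cell cycle inhibitor p21, was at 10.6 and 10.8 CPM in the controls and 7.50 and 10.6 CPM in the low group. Of 24 immediate early and heat shock genes 21 were higher, 3 of them at an unadjusted p under 0.05, with a median of 0.14 that was 0.08 without low 1. Jund, a subunit of AP-1, was at 21.0 and 20.2 CPM (controls) and 26.2 and 26.4 CPM (low), Ier5 at 21.6 and 23.9 CPM in the controls and 31.04 and 26.4 CPM in the low libraries and the chaperone Hspa8 at 1965 and 2422 CPM in controls and 2549 and 2786 CPM in low libraries. Of 30 genes of oxidative stress and glutathione 25 were higher and 16 lay above both controls, where 18% of all genes did, and the median was 0.07. Mt1, a metallothionein, was at 34.8 and 26.9 CPM in the controls and 42.1 and 36.8 CPM in the low group, and the superoxide dismutase Sod1 at 137 and 137 CPM (controls) and 149.9 and 147 CPM (low).

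DEHP metabolites are ligands of PPAR receptors, and the genes of those receptors and their targets were examined for that reason. Ppara, Pparg and 6 other genes of the PPAR list were not analysed here. Of the 22 measured 18 were higher, with 0 higher and 1 lower at an unadjusted p under 0.05 and a median of 0.08 that was 0.04 without control 2. Above both controls lay 8 genes and below both 3, beside 18% and 17.2% of all genes. Ppard, the receptor with a row, was at 16.4 and 15.3 CPM in the controls and 22.7 and 16.6 CPM in the low group, and Acadl, an enzyme of fatty acid oxidation, at 23.8 and 26.8 CPM in the controls and 28.4 and 27.9 CPM in the low libraries. Fabp3, a fatty acid carrier, was the lower gene at 12.3 and 5.98 CPM in controls and 4.82 and 5.35 CPM in low libraries.

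Most mitotic genes were slightly lower, and replication genes were divided evenly. Of 41 genes of mitosis 35 were lower and 15 lay below both controls (17.2% of all genes did), with a median of -0.04 (-0.06 without low 1). Ccnb1, the mitotic cyclin, was at 255 and 229 CPM in the controls and 208 and 206 CPM in the low group (log2 difference -0.22, SE 0.06), and Kif23, a motor of cell division, at 92.6 and 85.1 CPM (controls) and 77.8 and 82.0 CPM (low). Of 39 replication genes 20 were higher and 19 lower, with 0 at an unadjusted p under 0.05 by limma. Among 41 enzymes of DNA methylation and chromatin 1 had an unadjusted p under 0.05, Tet3, which oxidizes methylated cytosine, at 49.0 and 53.5 CPM in the controls and 44.9 and 44.5 CPM in the low group. Of 37 imprinted genes 1 did: the paternally expressed growth regulator Plagl1 was at 5.02 and 3.72 CPM in the controls and 1.29 and 2.79 CPM in the low libraries. Of 9 measured genes of primordial germ cells 7 were higher and 2 lower, with a median of 0.13 that was -0.03 without low 1. The one with an unadjusted p under 0.05 was a lower gene: Kit, the receptor that germ cell precursors need, was at 27.6 and 28.0 CPM in controls and 24.0 and 21.6 CPM in low libraries (log2 difference -0.27, SE 0.07).

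Pseudogenes, mostly processed copies of active genes, were lower as a class. Of 383 annotated pseudogenes 296 were lower and 169 lay below both controls, which is 44.1% against 17.2% of all genes. At an unadjusted p under 0.05 by limma 61 were lower, or 15.9% against 2.97% of all genes, and 2 were higher. The median was -0.11, compared with 0.0040 for 12098 protein-coding genes. Rpl10a-ps1 was at 36.8 and 41.6 CPM in the controls and 31.1 and 30.1 CPM in the low group, Pgam1-ps2 at 31.1 and 34.8 CPM (controls) and 27.4 and 26.7 CPM (low), and Rps16-ps2 at 19.03 and 19.07 CPM in the controls and 15.1 and 12.7 CPM in the low libraries. Of 50 ribosomal protein pseudogenes 37 were lower with a median of -0.12, while 75 of the 78 ribosomal protein genes themselves were higher. Reads of a processed pseudogene can also match its parent gene. Reads without a unique alignment are held in a line of their own, apart from the genes. The pseudogene values thus rest on the reads placed uniquely and are uncertain. The share of reads without a unique alignment was 21.9% and 22.2% in the controls and 22.9% and 22.6% in the low group. Its part in the result was not tested. The pseudogene medians were -0.05 and -0.13 for low 1 against control 1 and control 2, and -0.09 and -0.16 for low 2, beside 0.09 for control 2 less control 1. Without control 2 the count at an unadjusted p under 0.05 was 15 lower pseudogenes, and without low 2 it was 20.

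**Figure D5:**
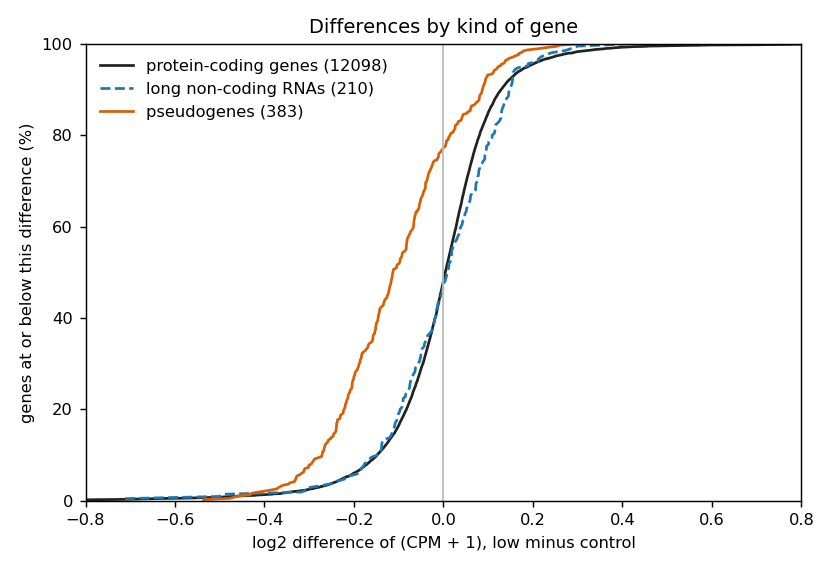
Share of genes (y axis, percent) at or below each log2 difference of low minus control (x axis), for 12098 protein-coding genes, 210 long non-coding RNAs and 383 pseudogenes. The curve of the pseudogenes lies to the left of the others, with 77.3% of them below 0, compared with 48.2% of protein-coding genes and 47.1% of long non-coding RNAs.

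Among protein-coding genes the median difference was lower in each longer class of gene span on the chromosome. Of 1713 protein-coding genes that span over 100 kb, 1205 were lower and 536 lay below both controls (17.2% of all genes did), with a median of -0.05. At an unadjusted p under 0.05 there were 125 lower and 8 higher, beside 2.97% and 1.9% of all genes. Of 983 protein-coding genes of 2 to 5 kb, 687 were higher and 327 lay above both controls (18% of all genes did), with a median of 0.05. The order did not hold over all annotations: of the 621 genes of any kind under 2 kb 356 were lower, with a median of -0.04, while 147 of the 199 protein-coding ones among them were higher. The medians of the long genes were -0.04 and -0.03 for low 1 against each control and -0.08 and -0.06 for low 2, beside -0.02 for control 2 less control 1. Several gene groups above share this property. The measured ribosomal protein genes have a median span of 3.27 kb and those of complex I of 8.38 kb, and the median is 69.6 kb for the Hedgehog list and 75.1 kb for the matrix list. Gli2 spans chr1:118834132-119053619 and Ror1 chr4:100095791-100444765. The part of gene length in the list differences was not tested. On the X chromosome 316 of 493 genes were lower and 128 lay below both controls (25.96%, beside 17.2% of all genes), with a median of -0.04. The X medians were -0.04 and -0.05 for low 1 against control 1 and control 2, and -0.02 and -0.03 for low 2. That of control 2 less control 1 was 0.01. Each library held RNA of both sexes, and the part of their proportions in this result was not tested.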

How the data were processed

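The authors deposited CPM for 6 RNA libraries in 1 table, per the file headers, which also give gene coordinates and 3 lines for reads without a gene. Those lines were left out of the tests and hold 21.9% to 22.9% (no unique alignment), 6.42% to 6.83% (no gene) and 0.444% to 0.460% (more than 1 gene) of the control and low libraries. With these lines the CPM summed to 982921 and 1002477 in the controls and 1017434 and 997055 in the low libraries. The scaling was thus not to 1 fixed total, and the factors used are not stated. Per the submitters' processing notes, which give no roles, the tools included edgeR, SAMtools, TopHat and Bowtie 0.12.2. Gene coordinates overlapped the GRCm38.p6 gene of the same symbol for all 12727 genes matched. On log2(CPM + 1), limma (version 3.58.1, R version 4.3.3) fitted a trend of the variance on the mean with control, low and high libraries together (3 residual degrees of freedom), with Benjamini-Hochberg adjustment over all genes. Log2 differences are on that scale, which understates low genes. The procedure was first tested on simulated data. The gene lists were described by counts and medians, without a test, and the members and lists were chosen with earlier results of these data known. Genes were named by rule: per direction the 12 with the smallest p whose libraries do not overlap and the 4 with the widest gap, in each list up to 4 members by smallest p, and those most apart within groups. Predicted genes were left out unless among the first 3. Robo2, Cdkn1a, Atf4, Ddit3, Fgf5, Axin2, Lgr5, Canx, Zic2 and other list members past the first 4 were chosen after their values were seen. Some genes that the rule names are not reported here. Promoter windows came from RefSeq on GRCm38.p6, and 6 motifs were searched. Alternatives were other pseudocounts, filters, normalizations, a fit without the high group, a replicate block and leaving out each library.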

Additional observations from a re-analysis of the deposited data

Results flagged for a closer look

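The share of reads with no unique alignment, which entered no comparison of genes, was above both controls in both low libraries. It was 22.9% and 22.6% in the low libraries (the lower of them at 22.59%) and 21.9% and 22.2% in the controls. The difference of 0.752 percentage points had an exact permutation p of 0.333 (two-sided), the smallest that 2 libraries against 2 allow.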

How the results depend on the processing

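Limma called 0 genes under 8 other pseudocounts, filters, fits and normalizations, under the replicate block (smallest adjusted p 0.701), and without low 1 or either high library. Leaving out 1 library gave 0 to 65 calls, 1 without control 1 (Gm23935), 10 without control 2 (among them Lama1, Col4a1 and Sox7) and 65 without low 2, in each case with a lone library assumed to vary like the other groups. Counts at an unadjusted p under 0.05 ran from 424 to 1106 with 1 library left out, against 633, and were 606 under the replicate block. Genes without overlap were 8510 to 8938, against 4570, because fewer libraries were compared. Without 1 library the log2 difference ran from -0.86 to 3.99 for Cdh5, from -1.62 to 2.76 for Prl3d1, from -1.08 to 2.56 for Prl7a1, from -1.71 to 3.70 for Adm, from -0.029 to 2.69 for Plac1, from -0.66 to 0.075 for Vim, from -0.025 to 0.57 for Hba-a1, from -0.039 to 1.51 for Tfap2c, from -0.031 to 0.87 for Tex19.1, from -0.28 to 0.025 for Vegfa and from -0.25 to 0.0076 for Idi1, and the cause was not tested beyond the library left out. Whether the column numbers pair the libraries is not stated, and a correlation over genes cannot decide it. The difference of control 1 and control 2 and that of low 1 and low 2 had a Pearson's r of 0.0035 and a Spearman's rho of -0.17. Their signs were the same in 44.2% of the 12987 genes, which are not independent replicates. Setting the medians of all libraries equal gave 195 higher and 464 lower genes at an unadjusted p under 0.05. The median difference of pseudogenes, added as a result after seeing the data, lay between -0.15 and -0.05 over all settings. Planned edgeR and DESeq2 fits on whole reads were not run: low CPM values were multiples of 1 step in each library (100% of them within 0.01 of a step), but whether a step is 1 read is not stated. Read depth is not stated either, so no counting interval is given.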
